A study of Mus musculus with 12 samples.

Results

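Of the 28999 genes in the expression table, 10 belonging to the BCL2 family were examined: the pro-survival genes Bcl2, Bcl2l1, Mcl1, Bcl2a1b and Bcl2a1d, the pore-forming executioners Bax and Bak1, and the BH3-only genes Bcl2l11, Bid and Bad. They were chosen by gene symbol, and the family members Pmaip1 and Bbc3 were left out. RNA had been sequenced from mouse bone marrow cells that the labels call long-term haematopoietic stem cells, or LT-HSCs, rare cells able to rebuild the blood for life. The 12 libraries fall into 4 groups of 3, untreated and 5-fluorouracil (5-FU) treated mice of each genotype, wild type and Trim47-/-, with 10 days given for the drug. Values listed over the groups run from untreated wild type through untreated Trim47-/- and treated wild type to treated Trim47-/-. Trim47 belongs to the tripartite-motif family of ubiquitin ligases, and 5-FU is a pyrimidine analogue that kills cycling cells. Not given in the sources used here are the strain and age of the mice, the 5-FU dose, the sorting markers and how Trim47 was disrupted. It is also not said whether the 3 libraries of a group came from separate mice, so p-values reflect library-to-library spread that may be purely technical.

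BCL2 family proteins decide whether the outer mitochondrial membrane stays intact. Bax and Bak1 form pores that release cytochrome c and start the caspase cascade, the pro-survival proteins hold them in check, and BH3-only proteins, which share only a short helix with the rest of the family, neutralise the pro-survival proteins or activate Bax and Bak1 directly. In blood stem cells Mcl1 is required for survival, and Bcl2l11, which encodes BIM, is a known target of FOXO transcription factors that are held inactive by growth factor signalling.

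Both Bcl2a1 genes are copies within 1 mouse cluster, and their sequences are shown because they limit what the counts can tell. Their GENCODE M21 transcripts on GRCm38 measured 817 bases for Bcl2a1b and 863 for Bcl2a1d, and 810 of the 817 aligned bases were identical. Within the reading frames of 519 bases, 6 positions differed, and 2 of them, in capitals, lie in the first 60 bases, shown here.
Bcl2a1b: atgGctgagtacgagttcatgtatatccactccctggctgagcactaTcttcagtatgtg
Bcl2a1d: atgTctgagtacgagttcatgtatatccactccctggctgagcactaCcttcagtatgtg
Of the 718 stretches of 100 bases in the Bcl2a1b transcript, 223 (31.1%) occurred letter for letter in Bcl2a1d. A read within such a stretch fits both copies, and only a mate over a differing base could place the pair. How such reads were counted is not given in the sources used here. The values of the copies are therefore uncertain one by one, and their sum with a further copy, Bcl2a1a, is given beside them.

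The genomic DNA before the 2 annotated starts also holds a stretch that is nearly the same in both copies. Only the part that aligned is shown. It reaches the annotated start of Bcl2a1d but ends short of that of Bcl2a1b, at 89199209. The stretches, from RefSeq's GRCm38.p6 promoter windows, lie at chr9:89199059-89199164 on the plus strand for Bcl2a1b and chr9:88731915-88732014 on the minus strand for Bcl2a1d. All 100 aligned bases were identical, and Bcl2a1b had 6 additional bases. Capitals mark a match to the AP-1 motif TGANTCA.
Bcl2a1b: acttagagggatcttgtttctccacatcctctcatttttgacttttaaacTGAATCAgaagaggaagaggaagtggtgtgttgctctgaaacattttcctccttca
Bcl2a1d: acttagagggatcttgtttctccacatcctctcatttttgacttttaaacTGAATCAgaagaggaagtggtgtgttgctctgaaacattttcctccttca
Promoter windows run from 250 bases before to 50 after each RefSeq start, and only the 250 bases before it were searched for motifs. Of 14 windows of the family, these 2 held TGANTCA there on either strand, against 6.75% of 32851 windows in the same table. The motif reads as itself on the opposite strand, so a site is found on both. A match of letters does not show that a factor binds there.

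Bcl2l11 showed the largest change among the abundant members, and its upstream 250 bases, at chr2:128125788-128126037 on the plus strand, are printed with a match to the FOXO core GTAAACA in capitals.
Bcl2l11: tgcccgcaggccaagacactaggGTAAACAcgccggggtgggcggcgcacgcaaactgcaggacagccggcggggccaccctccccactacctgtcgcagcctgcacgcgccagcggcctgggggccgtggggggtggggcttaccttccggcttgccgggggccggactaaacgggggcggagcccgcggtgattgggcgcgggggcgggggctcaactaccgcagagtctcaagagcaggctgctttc
The match begins at -227 from the RefSeq start. GTAAACA, searched on both strands, was in 3.17% of all windows and in no other window of the family. TGACGTCA, the cyclic AMP response element, was in 1.55% of all windows and in none of the family's, and the NF-kB consensus was in 7.25% of all windows and in 1 of the family's, that of Bcl2l1.

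Total counts were close within each group and did not overlap between groups, so sequencing depth went with group. Untreated libraries held 14828152 to 14885673 counts (wild type) and 20661120 to 20703198 (Trim47-/-). Treated libraries held 15111811 to 15151589 (wild type) and 13919649 to 13953510 (Trim47-/-). Whether such close totals come from technical replicates or from counts cut to a set depth was not tested. Levels below are CPM, which are counts divided by library sizes adjusted with TMM, unless FPKM, which also divides by gene length, is named. Trim47 itself averaged 24.4 ± 0.531 (wild type) and 19.7 ± 3.63 CPM (Trim47-/-) without the drug (SD, n = 3 each), a difference that missed the threshold (log2 change -0.31, adjusted p = 0.0632). After 5-FU it averaged 35.4 ± 2.50 against 11.3 ± 1.09 CPM (-1.64, adjusted p = 5.50e-07). Because the disrupted part is unknown, these counts check the genotype labels only in part. The summed level of 11 LT-HSC markers was 1179 to 1337 CPM in untreated wild type, 1314 to 1486 in untreated Trim47-/-, 1236 to 1500 in wild type after 5-FU and 765 to 817 in Trim47-/- after 5-FU. None of the 11 was at 0 in any group, but Slamf1 and Hoxb5, which help define the cell type, averaged 1.89 and 1.04 CPM in untreated wild type. Monocyte and macrophage markers (8 genes) summed to 635 to 641, 465 to 494, 594 to 607 and 1028 to 1056 CPM in the same order of groups, and neutrophil markers (10 genes) to 2975 to 3106, 3009 to 3052, 3622 to 3711 and 5762 to 6150 CPM. Erythroid markers (6 genes) summed to 79.1 to 87.2, 138 to 142, 428 to 435 and 369 to 381 CPM, and dendritic cell markers (6 genes) to 987 to 1006, 1131 to 1229, 606 to 621 and 519 to 531 CPM, so both lists moved with 5-FU in each genotype. Flt3 made up most of the dendritic sum, with means of 711, 915, 546 and 445 CPM in that order of groups. The means of Itgax, H2-Aa, Cd74, Siglech and Clec9a were each lower in untreated Trim47-/- than in untreated wild type. The part of the erythroid and dendritic lists in the members' 5-FU changes was not tested.

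Mcl1 was by far the most abundant family transcript per length, with a mean of 338 FPKM over the 12 libraries. Bak1 (15.8), Bax (13.3), Bcl2 (10.4), Bcl2l11 (7.32) and Bid (6.43 FPKM) formed a middle group, and Bad (2.58), Bcl2l1 (1.14), Bcl2a1d (1.05) and Bcl2a1b (0.842 FPKM) were low. Neighbours in the middle group could not always be told apart: in untreated wild type Bak1 stood at 12.6 ± 0.443, Bcl2 at 12.4 ± 0.582, Bax at 12.3 ± 1.68 and Bcl2l11 at 11.1 ± 1.17 FPKM (SD, n = 3). The order also rests on gene length. The length behind the FPKM equalled the sum of all distinct annotated exons of GENCODE M21, overlapping ones each counted, which equalled the only transcript for each Bcl2a1 copy but was 4.64 times for Bcl2l1 (11905 against 2568 bases) and 3.08 times for Bcl2l11 (15525 against 5036). With principal transcript lengths, a choice made after seeing the data, the order became Mcl1, Bax, Bak1, Bcl2l11, Bid, Bcl2, Bad, Bcl2l1, Bcl2a1d and Bcl2a1b. Mcl1 stayed first and the 4 lowest genes kept their places.

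**Figure D1:**
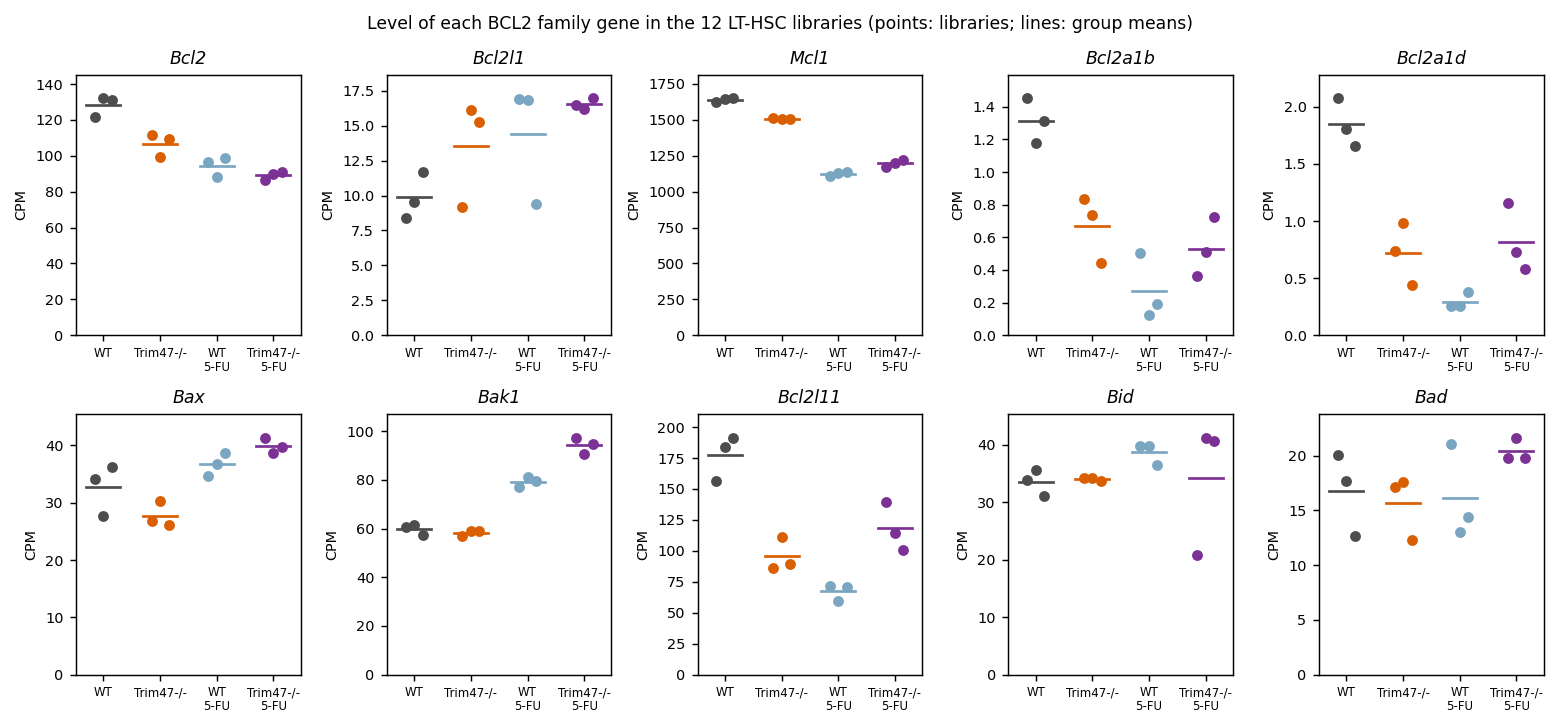
CPM of each BCL2 family gene (y axes, each from 0) in the 4 groups (x axes); points are the 12 libraries and lines the group means. Mcl1, Bcl2l11 and both Bcl2a1 genes are highest in untreated wild type, and Bak1 is highest in Trim47-/- after 5-FU.

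In untreated mice, 5 of the 10 members were lower in Trim47-/- than in wild type and none was higher at an adjusted p under 0.05 (edgeR quasi-likelihood test, all genes adjusted together). These were Bcl2l11, Mcl1, Bcl2, Bcl2a1b and Bcl2a1d. At an unadjusted p under 0.05, 6 were lower and 0 higher, and DESeq2 called 4 lower and 0 higher. For Bcl2a1b and Bcl2a1d, untreated wild type, where they are high, was the only group with all libraries at the level of the low-count filter. Without these copies 3 of 8 members were lower. Of all 16319 genes tested, 33.04% passed, 17.6% higher and 15.4% lower. The members' median log2 change was -0.18, against 0.03 for all genes. That median includes Bcl2a1b (-0.96) and Bcl2a1d (-1.35), so it too depends on the filter. After 5-FU, 4 of the 10 members, Mcl1, Bcl2a1d, Bak1 and Bcl2l11, were higher in Trim47-/- and 0 were lower, a smaller share than the 54.7% of all genes passing (27.2% higher, 27.6% lower). Without the Bcl2a1 copies it was 3 of 8. Bcl2, lower untreated, stood at -0.08 and did not pass. An unadjusted p under 0.05 and DESeq2 each gave the same 4 higher and 0 lower. The median was 0.23 for the members, again with Bcl2a1b (0.94) and Bcl2a1d (1.45) included, and -0.00 for all genes. Mcl1, Bcl2a1d and Bcl2l11 passed in both genotype comparisons with opposite signs, lower untreated and higher after 5-FU, as did 9.69% of all genes tested.

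With 5-FU, 60% of the 10 members passed in wild type and 40% in Trim47-/-. In wild type, 5 fell (Bcl2, Mcl1, Bcl2a1b, Bcl2a1d and Bcl2l11) and 1 rose (Bak1). There 50.6% of all genes passed (25.2% higher, 25.4% lower). Without the Bcl2a1 copies, 3 of 8 members fell and 1 rose. In Trim47-/-, 2 fell (Mcl1 and Bcl2) and 2 rose (Bax and Bak1), where 60.5% of all genes passed (29.6% higher, 30.8% lower). The interaction, the 5-FU response in Trim47-/- minus that in wild type, was positive at the threshold for 6 members (Mcl1, Bcl2a1b, Bcl2a1d, Bax, Bak1 and Bcl2l11) and negative for 0, while 54.9% of all genes passed, 26.4% positive and 28.5% negative. Without Bcl2a1b and Bcl2a1d, which were wholly at the filter level only in untreated wild type, 4 of 8 members were positive. At an unadjusted p under 0.05, 7 members were positive and 0 negative, and DESeq2 called 6 and 0. The 3 libraries of 1 group lay wholly above or below those of the other for 5 members in the untreated genotype comparison (47.9% of all genes tested), 5 after 5-FU (61.3%), 7 with 5-FU in wild type (58.9%) and 6 in Trim47-/- (66.6%). Both Bcl2a1 copies were among these members untreated and with 5-FU in wild type, and Bcl2a1d was after 5-FU. The 4 comparisons share libraries, so their counts do not support one another.

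**Figure D2:**
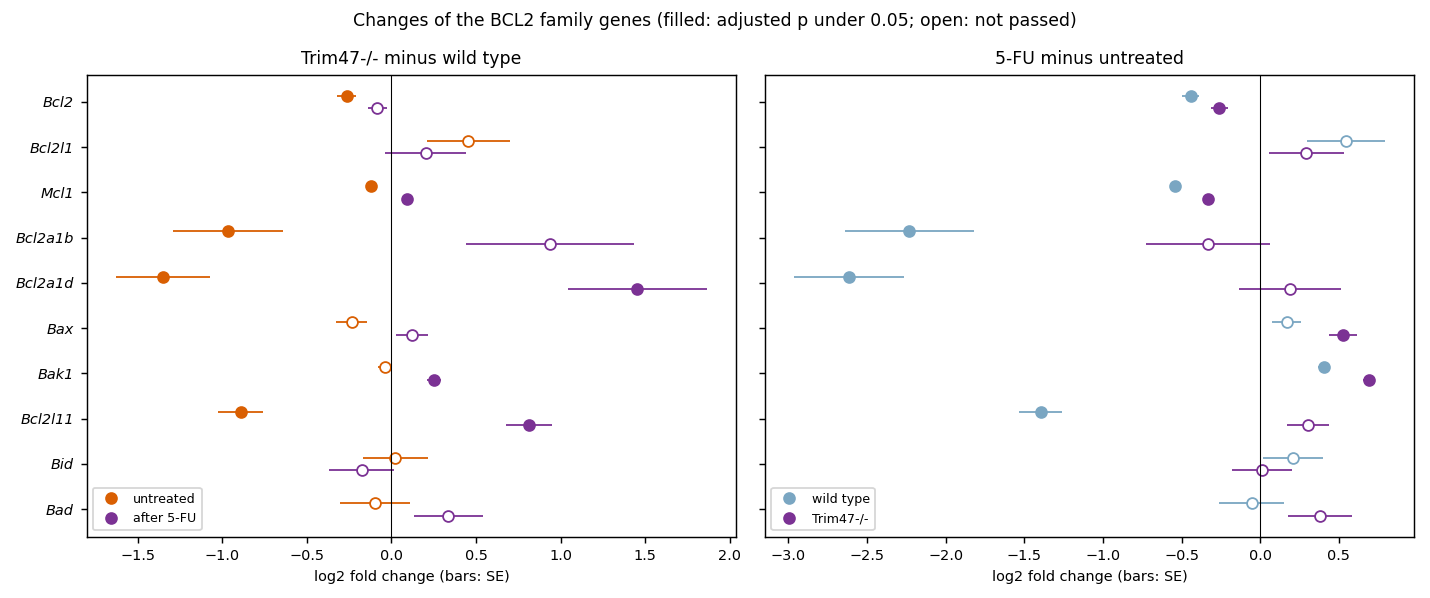
Log2 fold change (x axes) of each member (y axis) for Trim47-/- minus wild type on the left and 5-FU minus untreated on the right; bars are SE and filled points have an edgeR adjusted p under 0.05. Filled points for untreated Trim47-/- all lie left of 0, and those for Trim47-/- after 5-FU all lie right of it.

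Among the pro-survival genes, Mcl1 (ENSMUSG00000038612, chromosome 3: 95658788 to 95663176, plus strand) had very close replicates. It stood at 1625, 1642 and 1650 CPM in untreated wild type, 1509, 1508 and 1503 in untreated Trim47-/-, 1112, 1127 and 1134 in wild type after 5-FU and 1172, 1201 and 1219.6 in Trim47-/- after 5-FU. The 4 groups did not overlap. The genotype differences were small, 0.12 lower on the log2 scale untreated (log2 change -0.12, SE 0.0154, adjusted p = 0.000123) and 0.09 higher after 5-FU (0.09, SE 0.0154, adjusted p = 0.000386). The fall with 5-FU was larger: -0.54 in wild type (adjusted p = 1.61e-10) and -0.33 in Trim47-/- (adjusted p = 7.90e-09), with an interaction of 0.21 (SE 0.0217, adjusted p = 7.81e-06). These values come from bulk RNA, in which fewer cells of a type and less RNA per cell cannot be told apart.

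Bcl2 (ENSMUSG00000057329, chromosome 1: 106538178 to 106714274, minus strand), the founding member of the family, stood at 122, 132 and 131 CPM in untreated wild type and at 112, 99.1 and 109 in untreated Trim47-/-. After 5-FU it was 96.4, 88.2 and 98.6 CPM in wild type and 86.7, 89.7 and 90.9 in Trim47-/-. Untreated wild type lay above all other libraries, and the 2 groups after 5-FU overlapped. Trim47-/- was lower untreated by a log2 change of -0.26 (SE 0.0542, adjusted p = 0.00316), while after 5-FU the change was -0.08 (adjusted p = 0.228). With 5-FU, Bcl2 fell by 0.44 in wild type (adjusted p = 4.09e-05) and by 0.26 in Trim47-/- (adjusted p = 0.00152). The difference between those responses, 0.18, missed the threshold (SE 0.0773, adjusted p = 0.0663) and ranged from 0.13 to 0.22 over the alternative settings, with adjusted p from 0.0384 to 0.251. Overlapping transcripts annotated at this locus are Mir3473f, Gm37053 and, on the other strand, D630008O14Rik.

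Bcl2l1 (ENSMUSG00000007659, chromosome 2: 152780668 to 152831728, minus strand), which encodes BCL-XL, varied most between libraries among the pro-survival genes above 5 CPM. Its values were 8.37, 9.56 and 11.7 CPM in untreated wild type, 9.17, 16.2 and 15.2 in untreated Trim47-/-, 16.9, 16.8 and 9.43 in wild type after 5-FU, and 16.5, 16.2 and 17.0 in Trim47-/- after 5-FU. Untreated Trim47-/- and wild type after 5-FU each had a single library at the untreated wild-type level. No comparison passed: the untreated genotype difference was 0.45 (SE 0.246, adjusted p = 0.187) and the 5-FU response in wild type 0.54 (SE 0.248, adjusted p = 0.0901). Without the first untreated Trim47-/- library the former was 0.67 and passed (adjusted p = 0.0419), and without the third wild-type 5-FU library the latter was 0.77 and passed (adjusted p = 0.0128).

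Bcl2a1b (ENSMUSG00000089929, chromosome 9: 89199209 to 89207827, plus strand) and Bcl2a1d (ENSMUSG00000099974, chromosome 9: 88723285 to 88731914, minus strand) encode A1, a short-lived pro-survival protein best known from neutrophils and activated lymphocytes. Both were scarce, with 6 (Bcl2a1b) and 7 (Bcl2a1d) of the 12 libraries at the level of the filter on low counts. Untreated wild type, where they are high, was the only group wholly at that level, so their tests are not independent of the filter. The other 8 members were above the filter in all 12 libraries. Bcl2a1b had 21, 17 and 19 counts in untreated wild type, 17, 15 and 9 in untreated Trim47-/-, 8, 2 and 3 in wild type after 5-FU and 5, 7 and 10 in Trim47-/- after 5-FU. Bcl2a1d had 30, 26 and 24 counts, then 15, 20 and 9, then 4, 4 and 6, then 16, 10 and 8, in the same order. Untreated wild type was above every other library for both copies once scaled to CPM.

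In untreated mice the log2 change in Trim47-/- was -0.96 for Bcl2a1b (SE 0.323, adjusted p = 0.0397) and -1.35 for Bcl2a1d (SE 0.276, adjusted p = 0.00315). The Bcl2a1b call did not hold in DESeq2 (adjusted p = 0.114), without the filter on low counts (0.0768) or without any 1 of 6 libraries: each of the 3 untreated wild-type libraries, untreated Trim47-/- libraries 2 and 3 or the second Trim47-/- library after 5-FU. After 5-FU, Bcl2a1d was higher in Trim47-/- by 1.45 (SE 0.411, adjusted p = 0.0109), but not at the threshold without the first Trim47-/- 5-FU library (1.13, adjusted p = 0.0517), and the Bcl2a1b change was 0.94 (SE 0.496, adjusted p = 0.134, or 1.70 and 0.0198 without the first wild-type 5-FU library). With 5-FU in wild type the log2 change was -2.23 for Bcl2a1b (SE 0.409, adjusted p = 0.000781) and -2.61 for Bcl2a1d (SE 0.349, adjusted p = 7.43e-05). In Trim47-/- the responses were -0.33 (adjusted p = 0.493) and 0.19 (adjusted p = 0.642). The interaction was 1.90 for Bcl2a1b (adjusted p = 0.0178, or 0.0637 without the third Trim47-/- 5-FU library) and 2.80 for Bcl2a1d (adjusted p = 0.000530).

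The 3 copies Bcl2a1a, Bcl2a1b and Bcl2a1d together gave 58, 57 and 51 counts in untreated wild type, 38, 35 and 22 in untreated Trim47-/-, 12, 6 and 12 in wild type after 5-FU and 26, 17 and 20 in Trim47-/- after 5-FU. Scaled, these were 3.83 ± 0.265, 1.55 ± 0.419, 0.632 ± 0.219 and 1.52 ± 0.329 CPM (SD, n = 3 each). The sum does not depend on how reads were split between these copies, and its groups overlapped only between untreated and 5-FU-treated Trim47-/-. Monocyte markers, given above, were lower in untreated Trim47-/- than in wild type for 4 of 8 genes and higher after 5-FU for 8 of 8, and with 5-FU in wild type 2 rose and 4 fell. Neutrophil markers were higher for 9 of 10 genes in Trim47-/- than in wild type after 5-FU. Untreated, 6 of the 10 were higher and 2 lower in Trim47-/-, and with 5-FU in wild type 8 rose and 0 fell. Of all genes, 17.6% were higher and 15.4% lower in untreated Trim47-/-, and 27.2% higher and 27.6% lower after 5-FU. With 5-FU in wild type 25.2% rose and 25.4% fell. The part of these markers in the Bcl2a1 values was not tested.

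Of the executioners, Bak1 (ENSMUSG00000057789, chromosome 17: 27019810 to 27029009, minus strand) rose with 5-FU in both genotypes. It stood at 60.9, 61.5 and 57.4 CPM in untreated wild type, 56.9, 59.1 and 59.1 in untreated Trim47-/-, 77.2, 81.0 and 79.5 in wild type after 5-FU and 97.4, 90.6 and 94.9 in Trim47-/- after 5-FU. The untreated groups overlapped (log2 change -0.04, adjusted p = 0.507), and the treated groups lay apart from them and from each other. The 5-FU response was 0.40 in wild type (SE 0.0393, adjusted p = 6.02e-06) and 0.69 in Trim47-/- (SE 0.039, adjusted p = 3.67e-08), with an interaction of 0.29 (SE 0.0552, adjusted p = 0.000925). After 5-FU, Bak1 was 0.25 higher in Trim47-/- (SE 0.0388, adjusted p = 0.000202). Ggnbp1 overlaps Bak1 on the other strand.

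Bax (ENSMUSG00000003873, chromosome 7: 45461697 to 45466898, minus strand) stood at 34.1, 27.7 and 36.2 CPM in untreated wild type, 26.8, 30.3 and 26.1 in untreated Trim47-/-, 34.7, 36.8 and 38.7 in wild type after 5-FU and 41.4, 38.7 and 39.8 in Trim47-/- after 5-FU. Bax is a textbook p53 target. Its 5-FU response passed in Trim47-/- (0.53, SE 0.092, adjusted p = 0.000415), where the groups did not overlap, and missed the threshold in wild type (0.17, adjusted p = 0.154), where they did. The interaction was 0.36 (SE 0.130, adjusted p = 0.0365), but over the alternatives its adjusted p ran from 0.00279 to 0.116. It was lost without any 1 of 8 libraries: libraries 1 and 3 of untreated wild type, of untreated Trim47-/- and of Trim47-/- after 5-FU, and libraries 1 and 2 of wild type after 5-FU. The genotype differences were -0.24 untreated (adjusted p = 0.0736, or 0.00699 without the second wild-type library) and 0.12 after 5-FU (adjusted p = 0.288). Gm45808 overlaps Bax on the same strand.

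Bcl2l11 (ENSMUSG00000027381, chromosome 2: 128126038 to 128162547, plus strand) carried the clearest genotype difference among the BH3-only genes. Its product BIM binds every pro-survival protein of the family and can also activate Bax and Bak1. The libraries stood at 157, 184 and 192 CPM in untreated wild type, 85.9, 112 and 89.5 in untreated Trim47-/-, 71.7, 59.3 and 71.0 in wild type after 5-FU and 139.5, 114 and 101 in Trim47-/- after 5-FU. Untreated wild type was above, and wild type after 5-FU below, every other library, while the 2 Trim47-/- groups overlapped. Trim47-/- was 1.85-fold lower untreated (log2 change -0.89, SE 0.133, adjusted p = 0.000399) and 1.75-fold higher after 5-FU (0.81, SE 0.136, adjusted p = 0.000367). In wild type, Bcl2l11 was 2.63-fold lower after 5-FU (-1.40, SE 0.136, adjusted p = 6.00e-06), and in Trim47-/- the change was 0.31 (SE 0.133, adjusted p = 0.0674; DESeq2 adjusted p = 0.0498).

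The Bcl2l11 interaction was 1.70 (SE 0.190, adjusted p = 1.58e-05) and ran from 1.57 to 1.82 over the alternatives. Its genotype differences kept their sign and passed under each alternative tried, from -1.01 to -0.81 untreated and from 0.68 to 0.91 after 5-FU. Of 8 monocyte markers, 4 were lower untreated and 8 higher after 5-FU in Trim47-/-, against 15.4% and 27.2% of all genes. With 5-FU in Trim47-/- 7 of the 8 rose, against 29.6% of all genes, where the Bcl2l11 change was 0.31. After 5-FU 10 of 11 LT-HSC markers were lower in Trim47-/- than in wild type, against 27.6% of all genes. Untreated, 4 of the 11 were higher in Trim47-/-, against 17.6%. The part of these markers in the Bcl2l11 result was not tested.

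Bid (ENSMUSG00000004446, chromosome 6: 120891930 to 120916853, minus strand), which is cut by caspase-8 and links death receptors to mitochondria, varied little within 3 groups: 33.8, 35.5 and 31.2 CPM in untreated wild type, 34.3, 34.2 and 33.7 in untreated Trim47-/-, and 39.9, 39.8 and 36.4 in wild type after 5-FU. In Trim47-/- after 5-FU the libraries read 20.8, 41.3 and 40.8 CPM. The highest of these was 1.98 times the first, a gap wider than counting error, which was 4.596% in that group. No comparison passed, the 5-FU response in Trim47-/- being 0.01 (SE 0.191, adjusted p = 0.970). Without that library it was 0.27 (adjusted p = 0.00340), and the wild-type response, 0.21 (adjusted p = 0.401), passed as well (adjusted p = 0.00943). Bcl2l13 overlaps Bid on the other strand.

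Bad (ENSMUSG00000024959, chromosome 19: 6941861 to 6951899, plus strand), whose product is silenced by phosphorylation under growth factor signalling, stood at 20.1, 17.7 and 12.6 CPM in untreated wild type, 17.2, 17.6 and 12.3 in untreated Trim47-/-, 21.1, 13.03 and 14.4 in wild type after 5-FU and 19.8, 21.7 and 19.8 in Trim47-/- after 5-FU. Groups overlapped in 3 of the 4 comparisons, and Trim47-/- after 5-FU lay above untreated Trim47-/- (0.38, SE 0.204, adjusted p = 0.129). No Bad comparison passed. Without the first wild-type 5-FU library the difference after 5-FU passed (0.58, adjusted p = 0.0298; 0.34, adjusted p = 0.191, with it), as did the interaction (0.67, adjusted p = 0.0487). Gpr137 overlaps Bad on the other strand.

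**Figure D3:**
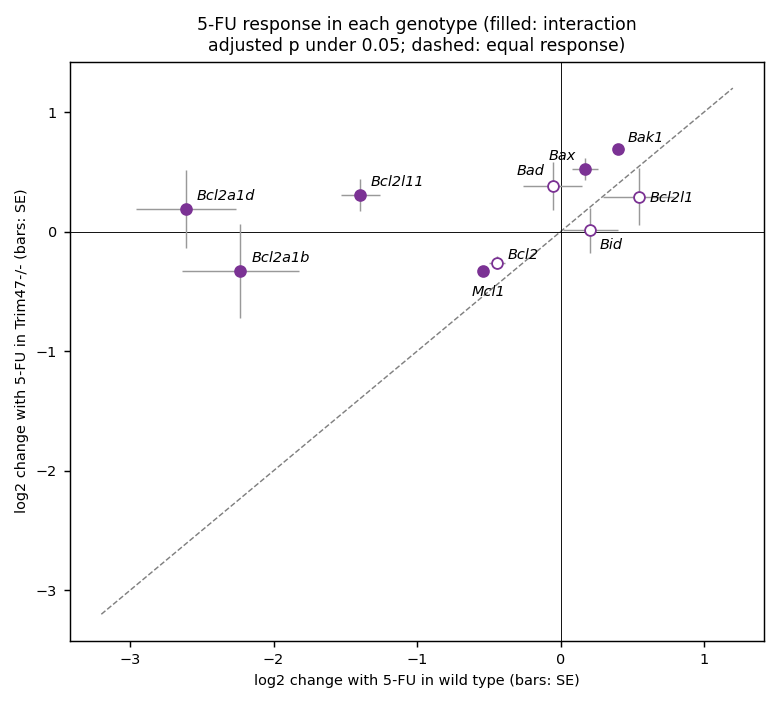
Log2 change with 5-FU in wild type (x axis) against that in Trim47-/- (y axis) for the 10 members; bars are SE, the dashed line marks equal responses and filled points have an interaction adjusted p under 0.05. Bcl2l11, Bcl2a1b and Bcl2a1d lie far left and near 0 on the y axis, and all 6 filled points lie above the line.

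The spread between libraries differed among members. Mcl1 had a coefficient of variation of 0.216% to 1.999% within groups, where counting alone gives 0.570% to 0.777%. Bcl2l11 varied by 10.3% to 16.6% within groups against 1.98% to 3.06% from counting, and Bad by 5.27% to 26.8% against 5.59% to 6.42%. GENCODE M21 gives 9 transcripts each for Bcl2l1 and Bad, 8 for Bcl2l11 and 2 for Mcl1. Whether the number of transcripts has a part in the spread was not tested.

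The Bax to Bcl2 ratio of FPKM was 0.992 ± 0.153 in untreated wild type, 1.02 ± 0.150 in untreated Trim47-/-, 1.51 ± 0.111 in wild type after 5-FU and 1.74 ± 0.0967 in Trim47-/- after 5-FU (SD, n = 3 each). The treated groups lay above the untreated ones and apart from each other, by log2 differences of 0.62 in wild type, 0.79 in Trim47-/- and 0.20 between the treated genotypes. The two-sided exact permutation test gave p = 0.1 for each of these, the smallest p that 3 against 3 allows, and 0.16 after adjustment over 8 tests. Untreated, the genotypes overlapped (0.04, exact permutation p = 1). With principal transcript lengths the ratios were 2.12, 2.17, 3.23 and 3.72, so only their order, not their level, can be read.

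Mcl1 made up 95.9 ± 0.0397%, 96.5 ± 0.0699%, 96.1 ± 0.240% and 96.2 ± 0.0533% of the summed pro-survival FPKM in the same order of groups. The sum itself was 413, 382, 303.5 and 306 FPKM. Untreated, the Mcl1 share was 0.626 percentage points higher in Trim47-/-, with no overlap (exact permutation p = 0.1, adjusted 0.16). The Bcl2l11 to Bcl2 ratio, chosen after its values were seen and not tested, was 0.892 ± 0.0560, 0.584 ± 0.125, 0.460 ± 0.0235 and 0.859 ± 0.165. The highest and the lowest of these means were the 2 wild-type groups.

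**Figure D4:**
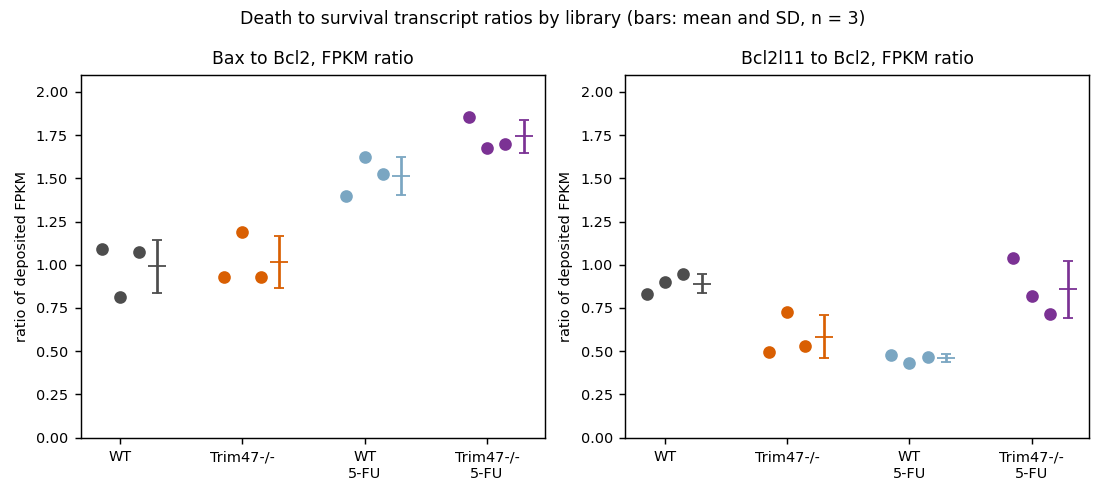
Ratio of deposited FPKM (y axes) of Bax to Bcl2 on the left and of Bcl2l11 to Bcl2 on the right, by group (x axes); points are libraries and bars the mean and SD of 3. The left ratio is at least 1.40 in the 6 treated libraries and at most 1.19 in the 6 untreated ones, and the right ratio is lowest in wild type after 5-FU.

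For members with a mean of at least 10 CPM, the 2 genes whose log2 CPM ran most alike over the 12 libraries were found among 9265 genes, as a description that follows group differences as well as spread. Mcl1 ran with Kctd12 (Pearson r = 0.997) and Marcksl1 (0.997), Bak1 with Nomo1 (0.994) and Lamtor4 (0.992), and Bcl2 with Birc2 (0.971), which encodes the inhibitor of apoptosis cIAP1, and Ago3 (0.967). Bcl2l11 was matched by Trp53inp2 (0.967) and Dot1l (0.964), Bax by Amot (0.955) and Mis18a (0.949), and Bid by Rac1 (0.946) and Ankle2 (0.849). The values were lower for Bcl2l1, with Maco1 (0.858) and Lgalsl (0.825), and for Bad, with Trmt1 (0.858) and Ccdc22 (0.820). Dot1l, a histone methyltransferase gene, followed the Bcl2l11 order with means of 486, 247, 177 and 313 CPM in that order of groups.

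Of 53 further apoptosis genes listed by role, 50 were in the table and 46 were tested. In untreated mice 9 were higher and 9 lower in Trim47-/-, 39.1% of the 46 against 33.04% of all genes, with a median log2 change of -0.00. After 5-FU 22 were higher and 7 lower, 63.0% against 54.7%, with a median of 0.15. With 5-FU, 18 rose and 10 fell in wild type (60.9% against 50.6%, median 0.10) and 24 rose and 8 fell in Trim47-/- (69.6% against 60.5%, median 0.17). The interaction was positive for 17 and negative for 10 (58.7% against 54.9%). These total shares lie near the background, but they hide the direction. Untreated, the list split evenly, where 17.6% of all genes were higher and 15.4% lower. After 5-FU, more listed genes were higher than lower, where 27.2% of all genes were higher and 27.6% lower. With 5-FU, more listed genes rose than fell in each genotype. Of all genes, 25.2% rose and 25.4% fell in wild type, and 29.6% rose and 30.8% fell in Trim47-/-. The interaction was positive for 26.4% and negative for 28.5% of all genes. The medians of all genes tested were 0.03 untreated, -0.00 after 5-FU, and 0.01 in wild type and -0.01 in Trim47-/- with 5-FU.

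Among inhibitors of apoptosis, which block caspases or cell death signalling, 2 were lower untreated and higher after 5-FU in Trim47-/-. Of all genes, 9.69% had that pattern. Diablo, an antagonist of these inhibitors, had it too (-0.19 and 0.15, edgeR adjusted p = 0.0136 and 0.0281), so it was not particular to the inhibitors. Birc3, which encodes cIAP2, averaged 173 ± 1.34 CPM in untreated wild type, 113 ± 0.282 in untreated Trim47-/-, 62.6 ± 3.24 in wild type after 5-FU and 99.8 ± 4.19 in Trim47-/- after 5-FU, with no overlap between genotypes in either state. Its genotype differences were -0.61 (adjusted p = 4.89e-07) and 0.67 (adjusted p = 9.31e-08). Birc6, a giant inhibitor with ubiquitin-conjugating activity, differed by -0.79 and 0.40 in the same comparisons (adjusted p = 3.92e-10 and 1.44e-08). Of the 8 genes in this class, which also holds antagonists of the inhibitors, 4 were lower untreated (Birc2, Birc3, Birc6 and the antagonist Diablo), against 15.4% of all genes, and 4 were higher and 1 lower after 5-FU, against 27.2% and 27.6%.

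Of the 3 tested enzymes that act on MCL1 protein stability, 2 were lower untreated and higher after 5-FU in Trim47-/-, a pattern of 9.69% of all genes. Huwe1, a ubiquitin ligase for MCL1, averaged 751, 522, 521 and 639.8 CPM, and Usp9x, which removes ubiquitin from it, averaged 224, 169, 153 and 213 CPM in that order of groups. The genotype differences were -0.53 and 0.30 for Huwe1 and -0.40 and 0.48 for Usp9x, each with an adjusted p of at most 3.65e-07. The ligase and the enzyme that opposes it changed in the same direction in both comparisons.

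Caspases and the apoptosome, which carry out death after cytochrome c release, moved less evenly. With 5-FU in wild type, 7 of 11 rose, against 25.2% of all genes, among them Casp9, the initiator caspase, at 9.41 ± 0.707 CPM untreated and 20.4 ± 0.530 after the drug (1.12, adjusted p = 0.00482). After 5-FU, Casp9 was lower in Trim47-/- (11.99 ± 1.39 CPM, log2 change -0.77, adjusted p = 0.0294), as was Casp6 (-0.52, adjusted p = 0.000115), while Cycs, which encodes cytochrome c, was higher (0.48, adjusted p = 5.58e-05). Channel and release factors such as Vdac2 and Endog rose for 5 of 6 genes with 5-FU in Trim47-/-, against 29.6% of all genes, Vdac2 by 0.46 and Endog by 0.53. Birc5, the mitotic gene that encodes survivin, rose by 0.48 and the necroptosis effector Mlkl by 0.45 in the same comparison.

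Among death receptors and related genes, Tnfrsf10b, a TRAIL receptor, fell with 5-FU in both genotypes (-1.06 and -0.89, adjusted p = 4.87e-05 and 0.000158), and Tnfrsf1b, a TNF receptor without a death domain, was lower in untreated Trim47-/- (-0.46) and fell with 5-FU in wild type (-0.62). Of this class, 3 of 10 genes rose and 3 fell with 5-FU in wild type, where 50.6% of all genes passed, and 5 rose and 2 fell in Trim47-/-, where 60.5% did. Bnip3, a mitophagy receptor distantly related to the family, was higher in untreated Trim47-/- (0.43, adjusted p = 0.00644), against the direction of the members that changed there.

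**Figure D5:**
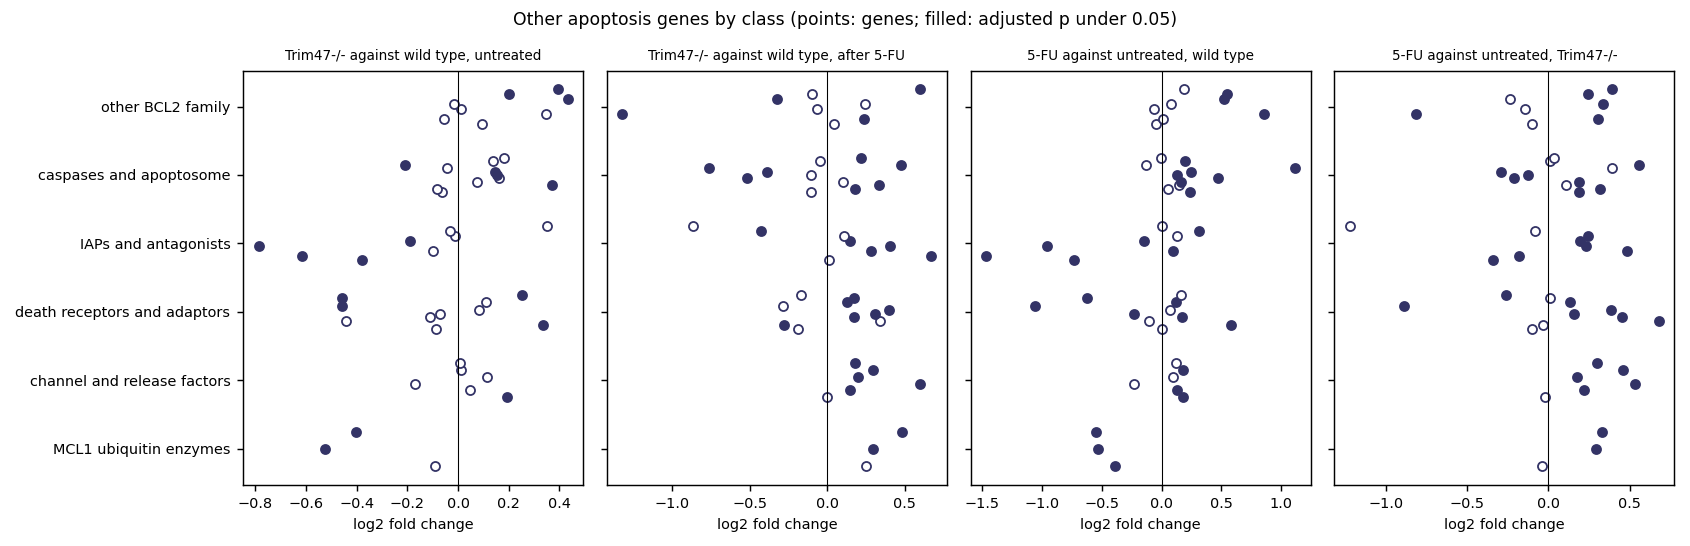
Log2 fold change (x axes) of the 46 tested apoptosis genes, by class (y axis), in the 4 comparisons; each point is a gene and filled points have an edgeR adjusted p under 0.05. The 4 filled points among inhibitors of apoptosis (IAPs) and their antagonists lie left of 0 in untreated Trim47-/-, and all filled MCL1 ubiquitin enzymes lie right of 0 after 5-FU in the second panel.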

How the data were processed

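Stranded paired-end libraries were prepared from poly-A RNA, per the labels' protocols. GRCm38, HISAT2, StringTie, edgeR and CASAVA 1.8 appear in the submitters' processing notes. Which tool counted reads, with which annotation and whether by strand, is not given in the sources used here, and overlapping genes may share reads. Per the file headers, the authors deposited a whole-number count and an FPKM value per gene for each of the 12 libraries.

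Groups and replicate numbers came from the sample titles. The count test was edgeR's (version 4.0.16, R 4.3.3; TMM, default filter on low counts with a minimum count of 10 over the 4 groups, 1 quasi-likelihood fit of all libraries), with Benjamini-Hochberg adjustment over the 16319 genes kept and a threshold of 0.05. Deposited FPKM served for comparisons between genes, with two-sided exact permutation tests for ratios. Alternatives were DESeq2 1.42.0, its size factors, no filter, a replicate block, only the libraries compared, a stricter p, a 2-fold threshold, FPKM settings and each library left out. Replicates differed more than counting predicts: the median chi-square per degree of freedom over genes was 1.07 to 1.14, against 0.693. Members and lists were chosen with earlier results of these data known. All 10 members are named. Named apoptosis genes are, per comparison, up to 6 of those passing, by size of change, that averaged at least 5 CPM and did not overlap between groups. Log2 CPM used a prior count of 2. The procedure was tested on simulated data in which all genes shared a single spread, narrower than that of Bcl2l11, for example. That test therefore does not cover members that varied more between libraries. Python 3.11.15 with pandas 2.3.3, scipy 1.17.1 and matplotlib 3.10.9 was used.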

Additional observations from a re-analysis of the deposited data

Results flagged for a closer look

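The 5-FU response differed between the genotypes for 6 of the 10 family members, by edgeR's test of the interaction at an adjusted p under 0.05. Of all genes tested, 54.9% passed, and of the 46 tested genes of the apoptosis list, 58.7%. Among the 15 named apoptosis genes 13 passed, but these were picked for large pairwise changes in the same data. Their share therefore cannot be set against that of all genes. The log2 difference, Trim47-/- minus wild type, was 0.21 for Mcl1, 0.36 for Bax, 0.29 for Bak1 and 1.70 for Bcl2l11. It was 1.90 for Bcl2a1b and 2.80 for Bcl2a1d, which were wholly at the low-count filter level only in untreated wild type. Among the apoptosis genes it was positive for Birc3 (1.29), Birc6 (1.19), Usp9x (0.88), Huwe1 (0.82), Endog (0.76), Cycs (0.69), Tnfrsf1b (0.63), Birc2 (0.39), Birc5 (0.39), Vdac2 (0.29) and Mlkl (0.28). It was negative for Bnip3 (-0.76) and Casp6 (-0.68), and did not pass for Casp9 and Tnfrsf10b.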

How the results depend on the processing

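Over all alternatives, 784 values for single members kept direction and side of the threshold, 18 newly passed, 21 no longer passed and 15 changed sign, and no value that changed sign had passed. Left-out libraries gave 4 to 6 members called untreated, 3 to 6 after 5-FU, 6 to 7 with 5-FU in wild type, 4 to 5 in Trim47-/- and 4 to 7 for the interaction, and for the apoptosis list 12 to 20, 22 to 32, 23 to 28, 27 to 33 and 24 to 27. At an adjusted p under 0.01 the untreated list count was 9. With a change of at least 2-fold also required, fewer members were called: 1, 1, 3, 0 and 3 in the same order. The 1 was Bcl2a1d each time, and the 3 were Bcl2l11 and both Bcl2a1 copies. Of all 16319 genes, 612, 1434, 1619, 2183 and 2774 passed that rule. With a library left out, the log2 change ran from -0.046 to 0.34 for Bcl2l1 after 5-FU and from -0.14 to 0.48 for Bcl2a1d with 5-FU in Trim47-/-. Bid ran from -0.025 to 0.070 untreated, -0.33 to 0.087 after 5-FU, -0.15 to 0.27 with 5-FU in Trim47-/- (-0.025 without the filter) and -0.35 to 0.061 in the interaction. Bad ran from -0.26 to 0.052 untreated and -0.29 to 0.091 with 5-FU in wild type. The cause of these changes was not tested.

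With principal transcript lengths, added after seeing the data, the Bax to Bcl2 ratios were 2.12, 2.17, 3.23 and 3.72 and the Mcl1 shares 94.96%, 95.3%, 94.4% and 94.5%. A pseudocount of 1 FPKM gave shares of 94.999%, 95.5%, 94.9% and 94.9%, and leaving out members under 1 FPKM gave 96.3%, 96.7% and, for Trim47-/- after 5-FU, 96.4%. With 1 library left out, the ratios ran from 0.944 to 1.08, 0.929 to 1.06, 1.46 to 1.57 and 1.69 to 1.78, and the shares from 95.88% to 95.92%, 96.51% to 96.57%, 95.998% to 96.24% and 96.14% to 96.19%.

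Deviations of same-numbered libraries from their group means had r from -0.212 to 0.189 over 12 pairs, against -0.226 to 0.238 for different numbers. Between the genotypes, same-numbered pairs had r of 0.0936, 0.0897 and 0.189 after 5-FU, and of -0.170, -0.0616 and -0.168 untreated. With 3 libraries per group, these values cannot decide whether the numbers mark pairs. The main fit treated the numbers as names only. With the replicate number as a block, 47 of the members' 50 results were unaltered in direction and call, Bcl2a1b untreated (-0.97, adjusted p = 0.0563) and the Bax interaction (0.35, adjusted p = 0.0578) no longer passed, and Bid with 5-FU in Trim47-/- became -0.012. Counts of 2 to 30 limit what can be said of the Bcl2a1 copies.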
